A study of Mus musculus with 12 samples.

Results

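The 7 genes described here are Hhip, Ptch1, Smo, Sufu, Gli1, Gli2 and Gli3, the receptors, regulators and transcription factors of Hedgehog signalling, out of 21887 protein-coding genes. Their chromatin was read from ATAC-seq peak lists of mouse hepatocytes. ATAC-seq uses a transposase that inserts sequencing adapters into open DNA, so a peak marks accessible chromatin. A peak belonged to a gene when it overlapped the gene's span or lay within 30 kb of it, and overlapping peaks of the 12 libraries were joined into regions. By this rule the genes held 360 of the 555888 regions of all deposited peaks. When each library was limited to its strongest 137034 peaks by fold enrichment, the number in the shortest list, they held 205 of 292665 regions. Of these, 96 of the 138538 regions found in at least 3 of the 12 libraries were tested, and 109 found in 1 or 2 libraries were not. The regions were chosen by their fold enrichment rank and presence in the lists, pooled over all libraries, which makes their presence and level a description here; the genes themselves were chosen with earlier results of these data known. Below, the lists in which a region is counted are these lists of kept peaks, unless the full deposited lists are named.

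The study has 4 groups of 3 mice. They are Alb-Cre/FBXL5F/F mice on 0.1% DDC for 2 weeks, FBXL5F/F mice on the same diet, Alb-Cre/FBXL5F/F mice on a standard diet, and FBXL5F/F mice on a standard diet. Mice of all groups carried floxed Fbxl5 alleles, and in Alb-Cre mice a Cre driven by the albumin promoter, active in hepatocytes, deletes them. These mice are called Fbxl5-deleted below, and mice without Cre floxed controls. FBXL5 is the substrate receptor of a ubiquitin ligase for iron regulatory protein 2. DDC (3,5-diethoxycarbonyl-1,4-dihydrocollidine) is a porphyrinogenic compound that causes cholestatic liver injury. The comparisons ask what the diet does in each genotype and what the deletion does on each diet.

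The lists held 137034 to 202912 peaks in 10 libraries. Fbxl5-deleted standard-diet libraries 1 and 3 were longer, at 262080 and 260622 peaks, but weaker. They had the fewest peaks at a −log10 q of at least 2, 77494 and 83094, against 96605 to 124330 in the others. Their median fold enrichment over all peaks was also the lowest, 2.45 and 2.29, against 3.33 to 4.37. The calls described below that use these libraries are therefore also given without them. At Fbxl5 itself a region (chr5:43781400-43782725) was listed in all 12 libraries. Its genotype difference was −0.05 ± 0.19 (SE) on DDC and 0.19 ± 0.19 on the standard diet, neither past the test described below (limma, adjusted p of 1.0 and 0.868). Another Fbxl5 region (chr5:43745212-43745590), in 10 lists, did not pass on either diet. The labels do not say which exon Cre removes, so this checks no label.

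Hedgehog ligands bind Patched (PTCH1), which otherwise keeps Smoothened (SMO) inactive. Active SMO releases GLI proteins from SUFU, so that GLI2 acts as an activator and GLI3 is no longer cut into a repressor. HHIP is a membrane protein that captures ligand. Ptch1, Hhip and Gli1 are themselves targets of the pathway, and their products (PTCH1 and HHIP) limit it. In liver the pathway is mostly quiet in healthy hepatocytes and is known for its response in stellate cells and cholangiocytes after injury.

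The promoters below span 250 bases before to 50 bases after the gene start (RefSeq, GRCm38.p6, the assembly of mm10). Smo and Gli2 are shown because their promoters were listed as open in all 12 libraries, and Hhip and Gli3 because no kept peak overlapped theirs in any library. Capitals mark GC boxes (GGGCGG) in Gli2, Hhip and Gli3 and the TEAD motif (GGAATG) in Smo, on either strand. They lie at chr6:29735247-29735546 (plus strand) for Smo, chr1:119053570-119053869 (minus) for Gli2, chr8:80057959-80058258 (minus) for Hhip and chr13:15463473-15463772 (plus) for Gli3.
Smo: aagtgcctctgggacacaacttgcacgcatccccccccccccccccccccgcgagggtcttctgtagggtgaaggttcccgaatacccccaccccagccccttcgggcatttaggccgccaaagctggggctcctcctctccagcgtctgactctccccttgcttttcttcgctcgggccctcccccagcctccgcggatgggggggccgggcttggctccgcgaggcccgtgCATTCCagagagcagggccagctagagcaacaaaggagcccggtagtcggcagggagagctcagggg
Gli2: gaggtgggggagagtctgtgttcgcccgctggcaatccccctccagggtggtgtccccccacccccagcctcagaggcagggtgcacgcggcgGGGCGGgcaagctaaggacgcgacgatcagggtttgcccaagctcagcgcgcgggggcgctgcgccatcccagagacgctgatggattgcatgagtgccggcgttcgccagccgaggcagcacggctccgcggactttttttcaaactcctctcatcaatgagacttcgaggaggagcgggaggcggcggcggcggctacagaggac
Hhip: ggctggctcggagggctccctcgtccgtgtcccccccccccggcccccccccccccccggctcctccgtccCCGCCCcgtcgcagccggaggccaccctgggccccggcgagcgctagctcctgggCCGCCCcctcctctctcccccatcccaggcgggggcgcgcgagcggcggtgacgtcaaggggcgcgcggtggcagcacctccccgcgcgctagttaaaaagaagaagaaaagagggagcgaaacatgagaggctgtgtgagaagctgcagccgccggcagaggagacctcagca
Gli3: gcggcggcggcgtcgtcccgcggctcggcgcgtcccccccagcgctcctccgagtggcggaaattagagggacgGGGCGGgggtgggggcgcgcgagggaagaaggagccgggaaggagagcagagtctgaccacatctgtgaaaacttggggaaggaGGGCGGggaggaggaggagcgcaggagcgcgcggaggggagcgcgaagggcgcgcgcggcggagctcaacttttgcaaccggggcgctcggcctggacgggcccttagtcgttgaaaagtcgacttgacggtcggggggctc

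GC content was 67.7% at Smo and 67.3% at Gli2, and 73.7% at Hhip and 71.0% at Gli3. All 4 lie above the median of 52.7% over the 32851 promoters of the table. CpG dinucleotides numbered 17 at Smo, 28 at Gli2, 30 at Hhip and 39 at Gli3, where the median promoter had 7. Of the other members, Ptch1, whose promoter window held no kept peak, had 76.3% GC and 47 CpG, and Sufu, listed in all 12 libraries, had 56.3% GC and 12 CpG. Smo, Gli2 and Sufu thus lay below Hhip, Gli3 and Ptch1 in both measures, a description of 6 promoters with no test. The GC box was found in the promoters of Hhip, Ptch1, Sufu, Gli2 and Gli3 and in 35.7% of all promoters. A CCAAT box (CCAAT, both strands) was found at Sufu and in 37.4% of all promoters, and the TEAD motif at Smo and in 14.7%. The letters of a GLI site (GACCACCCA, 0.253% of all promoters), an AP-1 site (TGANTCA, 7.81%) and an HNF4 site (CAAAGTCCA, 0.475%) were in none of the 6 windows. No 2 of the matches overlapped.

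Presence at the gene start differed widely among the members. In the full deposited lists, a peak overlapped the promoter of Smo, Sufu and Gli2 in 12 of 12 libraries. The 300 bases at Ptch1 held a peak in 4 libraries, none of them kept. Within 1 kb of the Ptch1 start all 12 had one, at a fold enrichment over the caller's background of 4.13 to 6.21, just inside the gene. Hhip had none within 1 kb of its start in any library. Gli3 had one in its promoter in 1 library, at 2.29-fold, and none among the kept peaks. At Gli1, whose start is not annotated here, the upper end of the span (chr10:127329882-127341579) had a peak within 1 kb in all 12 libraries at 3.54 to 7.57-fold, and the lower end had none.

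The 96 tested regions were spread unevenly. Sufu, the brake on GLI proteins, had 26, Gli2 23, Gli1 20, Ptch1 15, Smo 7, Gli3 3 and Hhip 2. Per 100 kb of window this was 27.9 at Gli1, 17.1 at Sufu, 11.99 at Ptch1, 8.20 at Gli2, 8.15 at Smo, 1.31 at Hhip and 0.919 at Gli3. The gene-rich Gli1 window thus came first, and the windows of Hhip and Gli3 last. At the edge of the windows, the outermost Gli2 region inside lay 29199 bp from the gene with a mean value of 1.89 on the scale explained below, and the next one outside lay 32981 bp away with 2.90. For Gli3 these were 28902 bp with 3.38 inside and 33054 bp with 2.01 outside, for Gli1 28082 bp with 3.55 and 30840 bp with 1.83, and for Sufu 29281 bp with 1.52 and 34950 bp with 1.40. For Smo they were 22977 bp with 2.81 inside and 30484 bp with 1.49 outside, for Ptch1 22653 bp with 1.60 and 36887 bp with 1.33, and for Hhip 19708 bp with 1.73 and 231075 bp with 3.02. The nearest strong peak outside the Hhip window was thus far from the gene, while Gli2 had one just beyond its window. Of the 96, 51 overlapped a member's span, 25 lay in another protein-coding gene, and 20 lay in none. The neighbours held 11 of the 20 Gli1 regions (in Mars1, Arhgap9, Inhbe and Inhbc), 10 of the 26 Sufu regions (in Mfsd13a, Actr1a and Trim8), 3 of the 7 Smo regions (in Tspan33 and Ahcyl2) and 1 Ptch1 region (in Fancc). The annotation used gives gene spans without exons.

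Kept peaks per library were counted in each window with no test. Gli2 had 23, 25 and 18 in Fbxl5-deleted DDC libraries, 21, 25 and 25 in control DDC libraries, 25, 22 and 46 in Fbxl5-deleted standard-diet libraries and 31, 32 and 27 in control standard-diet libraries. Replicate 3 of the Fbxl5-deleted standard-diet group stood far above the rest, and it also held 30 of the 109 untested regions, more than any other. Ptch1 had 9, 11 and 14 in Fbxl5-deleted DDC, 11, 11 and 12 in control DDC, 15, 17 and 14 in Fbxl5-deleted standard-diet and 15, 14 and 19 in control standard-diet libraries. Its control libraries did not overlap between the diets. In the full lists this separation was gone, with 16, 19 and 23 Ptch1 peaks in control DDC libraries and 17, 15 and 19 in control standard-diet libraries. Sufu ranged from 25 to 35, Gli1 from 17 to 21, Smo from 7 to 13, Gli3 from 2 to 7 and Hhip from 1 to 3.

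**Figure D1:**
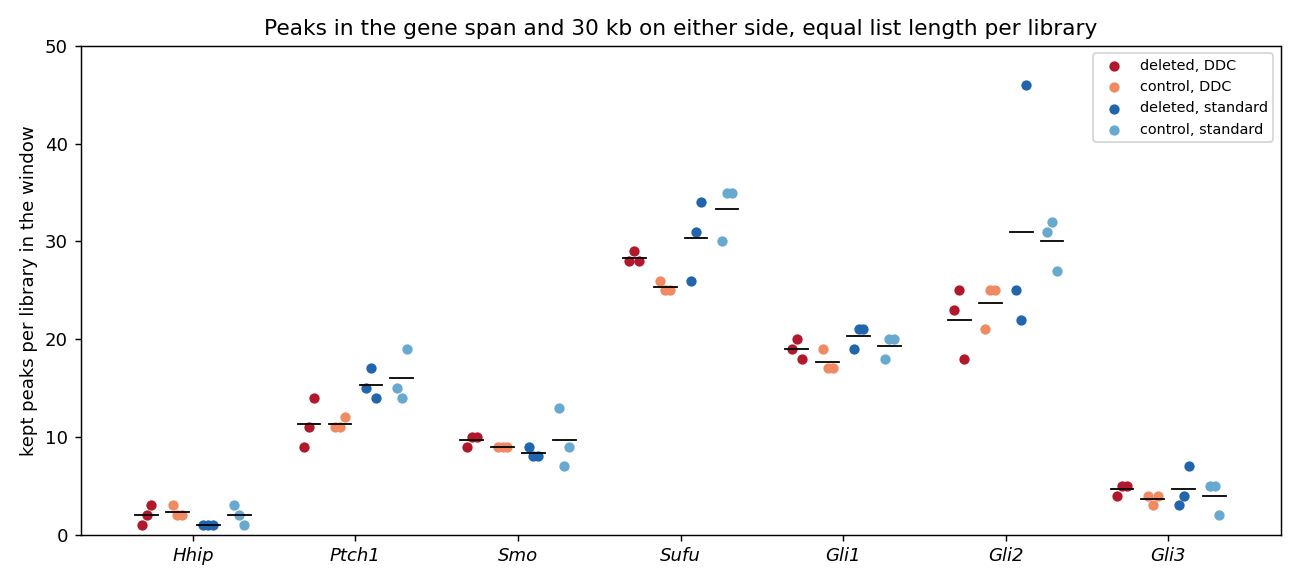
Kept peaks (y axis, number per library) in each gene's span and 30 kb on either side (x axis); points are libraries, lines are group means, colours are the 4 groups. Sufu and Gli2 have the most peaks, and replicate 3 of the Fbxl5-deleted standard-diet group stands out at Gli2 with 46.

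The value used for a region is its rank by fold enrichment within its library, placed on the mean scale of log2 fold enrichment over the libraries. Absence from a list was set to the lowest value, 1.27. The median value was 1.94 over the 96 regions and 1.99 over all tested regions, and 53.1% of the 96 and 44.5% of all were found in all 12 libraries. The regions of highest mean value were 4.16 for Sufu (inside the neighbour Mfsd13a), 4.14 for Gli2, 4.02 for Smo (inside the neighbour Ahcyl2), 3.88 for Gli1, 3.38 for Gli3, 3.16 for Ptch1 and 1.73 for Hhip. The Hhip window therefore had only weak peaks, while the windows of the other genes held at least 1 strong one. That of Gli3 lay 28902 bp outside the gene's span.

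Several of the strong regions lie in the spans of the genes themselves. In Gli2 the strongest (chr1:119031093-119031856, 22144 bp into the gene from its start) had values of 4.18, 4.43 and 4.03 in Fbxl5-deleted DDC libraries, 4.26, 4.27 and 4.10 in control DDC, 4.08, 4.23 and 3.89 in Fbxl5-deleted standard-diet and 3.85, 4.30 and 4.03 in control standard-diet libraries. All groups overlapped there. In Gli1 the strongest (chr10:127338729-127339207, within the span) lay between 3.69 and 4.07 in all 12 libraries. In Ptch1 the strongest (chr13:63567793-63568264) lay within the span but before the start used for the promoter, with its centre at −2293 bp from it. This region had 3.12, 3.04 and 3.10 in Fbxl5-deleted DDC libraries, 2.99, 2.98 and 2.91 in control DDC, 3.42, 3.27 and 3.41 in Fbxl5-deleted standard-diet and 3.13, 3.19 and 3.29 in control standard-diet libraries. The DDC libraries lay below the standard-diet libraries of their genotype without overlap, by 0.28 ± 0.16 (SE) in Fbxl5-deleted mice and 0.24 ± 0.16 in controls. Neither difference passed the test (limma, adjusted p = 0.383 and 0.424).

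At the promoters, Gli2 (chr1:119053242-119054014) had values of 3.85, 3.91 and 3.49 in Fbxl5-deleted DDC libraries, 3.61, 3.80 and 3.65 in control DDC, 3.26, 3.75 and 3.80 in Fbxl5-deleted standard-diet and 4.03, 3.90 and 3.93 in control standard-diet libraries. It ranked among the top 4.43% to 19.4% of kept peaks. The Sufu promoter (chr19:46396640-46397319) was weaker, at 2.31 ± 0.11 (SD, n = 3) in Fbxl5-deleted DDC, 2.26 ± 0.36 in control DDC, 2.47 ± 0.50 in Fbxl5-deleted standard-diet and 2.29 ± 0.09 in control standard-diet libraries. Neither promoter passed the test in any of the 5 comparisons. The Ptch1 region just inside its start (chr13:63564533-63565593) was listed in all 12 libraries and had 2.31 ± 0.10 in Fbxl5-deleted DDC, 2.13 ± 0.26 in control DDC, 2.59 ± 0.43 in Fbxl5-deleted standard-diet and 2.38 ± 0.08 in control standard-diet libraries, with no call either.

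DDC against the standard diet in Fbxl5-deleted mice changed 3 of the 96 regions (limma, adjusted p under 0.05), where 3.17% of all tested regions were called. One region rose, in the Sufu window, and the other two fell, past the ends of Gli2 and Ptch1, of which the Ptch1 region entered the test only through its standard-diet libraries; over all tested regions 2.43% rose and 0.743% fell. In floxed controls the diet changed 2 of the 96, where 7.02% of all tested regions were called. Both fell, the Gli2 region and the region that overlaps the Smo promoter. Over all tested regions 4.66% rose and 2.36% fell. The share called was thus near the genome's in Fbxl5-deleted mice and lower in controls, a difference that rests on 2 regions. The median diet difference of the 96 was −0.02 in Fbxl5-deleted mice, against 0.01 over all tested regions. In controls it was −0.08, against −0.01. At an unadjusted p under 0.05 there were 14 regions in Fbxl5-deleted mice (17.4% of all tested) and 15 in controls (21.2% of all tested).

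In Fbxl5-deleted mice the 3 DDC libraries lay above the 3 standard-diet libraries, with no overlap, at 8 of the 96 regions (10.1% of all tested) and below them at 10 (8.19% of all tested). In controls they lay above at 9 (12.7% of all tested) and below at 15 (11.9% of all tested). As shares of the 96 these were 8.33% above and 10.4% below in Fbxl5-deleted mice, near those of all tested regions. In controls they were 9.38% above and 15.6% below. No test was made of these counts, and no direction is read from them. In Fbxl5-deleted mice 1 region was in 3 of 3 DDC lists and 0 of 3 standard-diet lists (2.5% of all tested).

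Peaks within 1 kb of either end of 10 hepatocyte marker genes were kept for all 10 in every library, and peaks at marker genes of other cells were kept too. Of 10 stellate and fibroblast genes, 6 to 8 had one in Fbxl5-deleted DDC libraries, 7 to 8 in control DDC, 4 to 7 in Fbxl5-deleted standard-diet and 6 to 8 in control standard-diet libraries. The summed fold enrichment of that list was 42.0 to 48.9 in Fbxl5-deleted DDC, 52.3 to 58.6 in control DDC, 31.9 to 46.3 in Fbxl5-deleted standard-diet and 48.6 to 53.5 in control standard-diet libraries. Of 8 macrophage genes, 3 to 4 had one in Fbxl5-deleted DDC, 3 to 7 in control DDC, 2 to 3 in Fbxl5-deleted standard-diet and 2 to 3 in control standard-diet libraries. The summed macrophage fold enrichment was 20.5 to 27.1 in Fbxl5-deleted DDC, 27.1 to 37.8 in control DDC, 14.1 to 18.0 in Fbxl5-deleted standard-diet and 16.1 to 18.8 in control standard-diet libraries, so the DDC libraries lay above the standard-diet libraries. The cholangiocyte markers Krt19 and Cftr, the endothelial markers Pecam1 and Lyve1, and the lymphocyte markers Cd8a and Ms4a1 were at 0 in all libraries. The part of these cells in the diet differences was not tested, and in such bulk samples fewer cells of a type and less open chromatin per cell cannot be told apart.

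**Figure D2:**
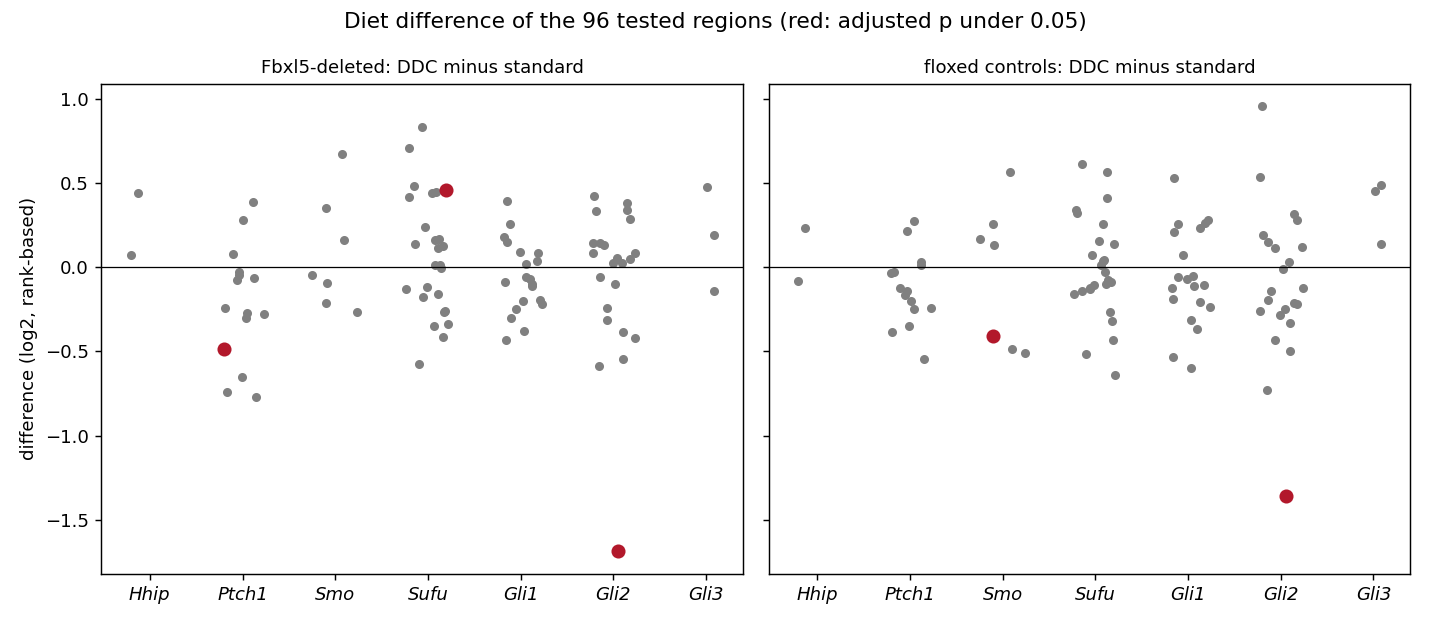
Difference of each of the 96 tested regions between DDC and the standard diet (y axis, log2, rank-based) by gene (x axis), in Fbxl5-deleted mice on the left and floxed controls on the right; red points passed an adjusted p under 0.05. The Gli2 region past the end of the gene has the most negative difference in both panels, −1.69 and −1.36.

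The Gli2 region that fell lies 21363 bp past the end of the gene (chr1:118811876-118812698), in no annotated gene; the next protein-coding gene, Tfcp2l1, is 126708 bp away. GLI2 is the main activator of the Hedgehog response. The region's values were 1.94, 1.65 and 1.99 in Fbxl5-deleted DDC libraries, 2.57, 3.13 and 2.08 in control DDC, 3.26, 3.98 and 3.41 in Fbxl5-deleted standard-diet and 4.11, 3.94 and 3.81 in control standard-diet libraries. All 6 DDC libraries lay below all 6 standard-diet libraries. In the deposited lists the fold enrichment of its strongest peak was 3.86, 3.27 and 3.94 in Fbxl5-deleted DDC libraries, 6.28, 10.5 and 4.31 in control DDC, 7.30, 16.4 and 9.55 in Fbxl5-deleted standard-diet and 16.6, 15.8 and 14.7 in control standard-diet libraries. The peak remained listed in all 12, so it moved down the ranking and did not drop out: counted from the top of the kept peaks it stood at 57.2% to 75.8% in Fbxl5-deleted DDC, 22.4% to 54.1% in control DDC, 5.07% to 19.4% in Fbxl5-deleted standard-diet and 3.45% to 7.89% in control standard-diet libraries.

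The diet difference of this region was −1.69 ± 0.25 (SE, n = 3 against 3) in Fbxl5-deleted mice, with an adjusted p of 0.000606 in limma. In controls it was −1.36 ± 0.25, adjusted p = 0.00176. It was past the threshold with any 1 library left out, and lost it only when a peak and its region had to overlap by 50% both ways, where the differences were −0.71 in Fbxl5-deleted mice (limma, adjusted p = 0.682) and −1.84 in controls (limma, adjusted p = 0.197). Without Fbxl5-deleted standard-diet libraries 1 and 3 they were −2.12 and −1.36 (limma, adjusted p = 0.00813 and 0.0023). The single peaks here were 211 to 543 bp long, against 823 bp for the joined region. A separate short region lay directly beside it on the side of the gene (chr1:118812714-118812954, named after its values were seen). It was in 3 lists, at 2.08 and 1.72 in Fbxl5-deleted standard-diet libraries 1 and 3 and 1.65 in control standard-diet library 3, and in no DDC list. This neighbour reached the minimum of 3 libraries only through standard-diet lists. A diet difference was thus built into its choice, and its absence on DDC is a description. At the region that fell, Fbxl5-deleted libraries lay below controls on DDC without overlap, by 0.73 ± 0.25, and by 0.40 ± 0.25 on the standard diet. Neither genotype difference passed the test (limma, adjusted p = 0.568 and 0.733), nor did the difference between the diet effects, −0.33 ± 0.35 (limma, adjusted p = 0.93).

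**Figure D3:**
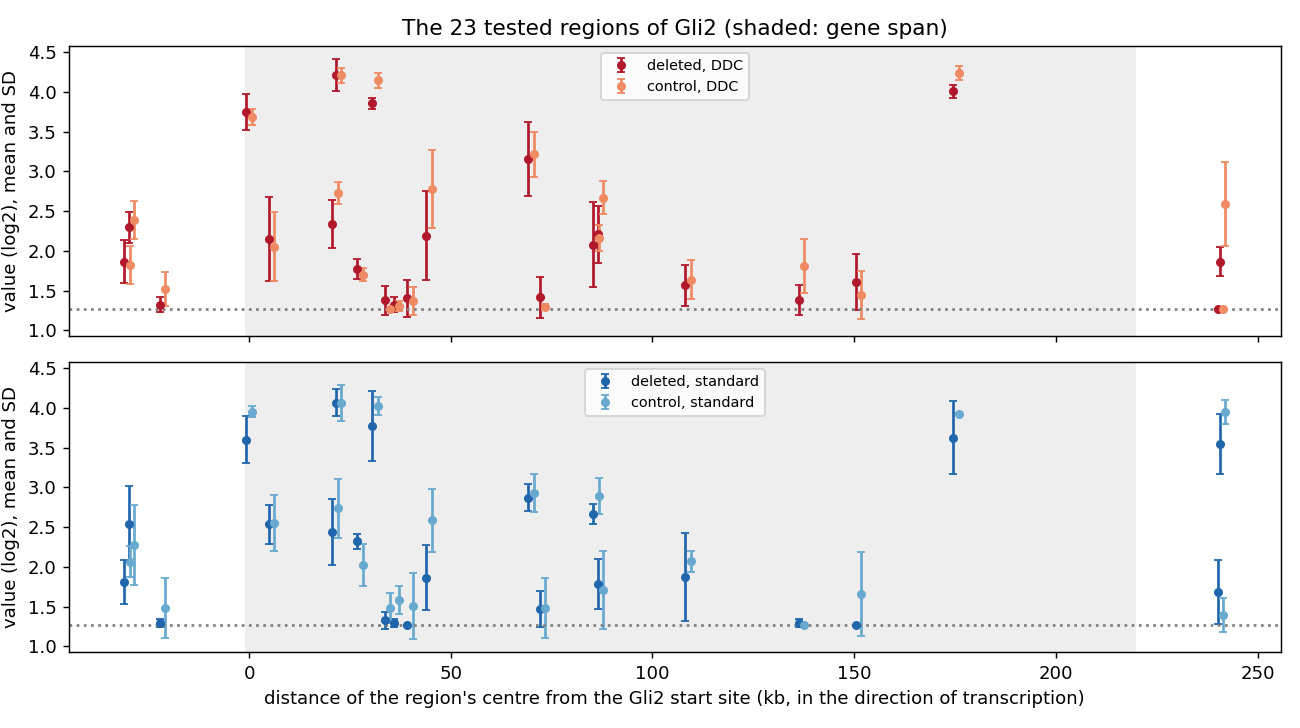
The 23 tested Gli2 regions by distance of their centre from the start site in kb (x axis, downstream to the right; shading is the gene's span) and by rank-based value in log2 (y axis; mean and SD of 3 libraries, dotted line the lowest value). The upper point at the far right, past the gene's end, is the region that fell on DDC, and the lower one its neighbour; the promoter at 0 stays between 3.60 and 3.95 in the group means.

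The region that overlaps the Smo promoter (chr6:29735347-29736588) fell on DDC in controls. SMO is the membrane protein that passes the signal on once PTCH1 is bound. A region's value is that of its strongest peak. Except in Fbxl5-deleted replicate 2 and control replicate 3 on the standard diet, this peak began inside the gene, past the promoter window. Peaks overlapping the window itself had fold enrichments of 7.81, 7.63 and 8.45 in control DDC and 5.37, 4.25 and 19.0 in control standard-diet libraries. The fall is therefore not read as one of the promoter. The region's values were 3.84, 3.80 and 3.97 in Fbxl5-deleted DDC libraries, 3.78, 3.87 and 3.56 in control DDC, 4.23, 4.11 and 3.91 in Fbxl5-deleted standard-diet and 4.07, 4.19 and 4.17 in control standard-diet libraries. In controls the diets did not overlap and differed by −0.41 ± 0.12 (limma, adjusted p = 0.0494). In Fbxl5-deleted mice the difference was −0.21 ± 0.12 (limma, adjusted p = 0.391), and the difference between these effects did not pass (0.20 ± 0.18, limma, adjusted p = 0.918). The control result lies at the threshold: it passed in 7 of 21 alternatives. Of the 12 fits with 1 library left out it passed in 2, those without replicate 1 or 3 of the Fbxl5-deleted standard-diet group, and adjusted p reached 0.175 in limma. Without both of these libraries it was −0.41 (limma, adjusted p = 0.0465).

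In the Sufu window the region that rose on DDC in Fbxl5-deleted mice lies inside Mfsd13a, 27314 bp before Sufu (chr19:46369107-46369582). Its values were 4.32, 4.40 and 4.38 in Fbxl5-deleted DDC libraries, 4.35, 4.20 and 4.22 in control DDC, 4.11, 3.97 and 3.65 in Fbxl5-deleted standard-diet and 4.23, 4.20 and 3.92 in control standard-diet libraries. The diets did not overlap in Fbxl5-deleted mice, and replicate 3 of the Fbxl5-deleted standard-diet group was the lowest of all 12. The difference was 0.46 ± 0.12 (limma, adjusted p = 0.0451), and it was 0.14 ± 0.12 in controls (limma, adjusted p = 0.583). It passed in 6 of 21 alternatives. Of the 12 fits with 1 library left out it passed in 2, those without replicate 1 of the Fbxl5-deleted or replicate 3 of the control standard-diet group, and adjusted p reached 0.186 in limma. Without Fbxl5-deleted standard-diet libraries 1 and 3 it was 0.40 (limma, adjusted p = 0.274).

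The Ptch1 region that fell lies 887 bp past the end of the gene (chr13:63506616-63507441). Among kept peaks it was in 0 of 3 Fbxl5-deleted DDC lists, 0 of 3 control DDC lists, 3 of 3 Fbxl5-deleted standard-diet lists and 1 of 3 control standard-diet lists. The full deposited list of Fbxl5-deleted DDC library 2 held a weak peak there, at 2.34-fold. The region reached the minimum of 3 libraries only through the standard-diet lists, so a difference was built into its choice and its call is a description. Such a presence in 0 against 3 lists was met at 0.64% of all tested regions for diet in Fbxl5-deleted mice. Where it was listed its values were low, 1.76, 1.92 and 1.59 in Fbxl5-deleted standard-diet libraries and 1.37 in 1 control standard-diet library. The adjusted p was 0.0481 in limma, and it passed in 3 of 18 alternatives. Of the 12 fits with 1 library left out it passed in 1, that without replicate 3 of the Fbxl5-deleted standard-diet group, and without replicates 1 and 3 of that group the adjusted p was 0.0404 in limma. No size is given because the region was absent from all kept DDC lists. Of the 15 Ptch1 regions, 12 had a negative diet difference in Fbxl5-deleted mice and 11 in controls, with medians of −0.24 and −0.14. Over all 138538 tested regions 65781 and 70720 were negative, with medians of 0.01 and −0.01. The Ptch1 regions at chr13:63485322, 63506616, 63520978 and 63549460 were in no kept DDC list. Their sign was built into their choice, so no direction is read from these counts.

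**Figure D4:**
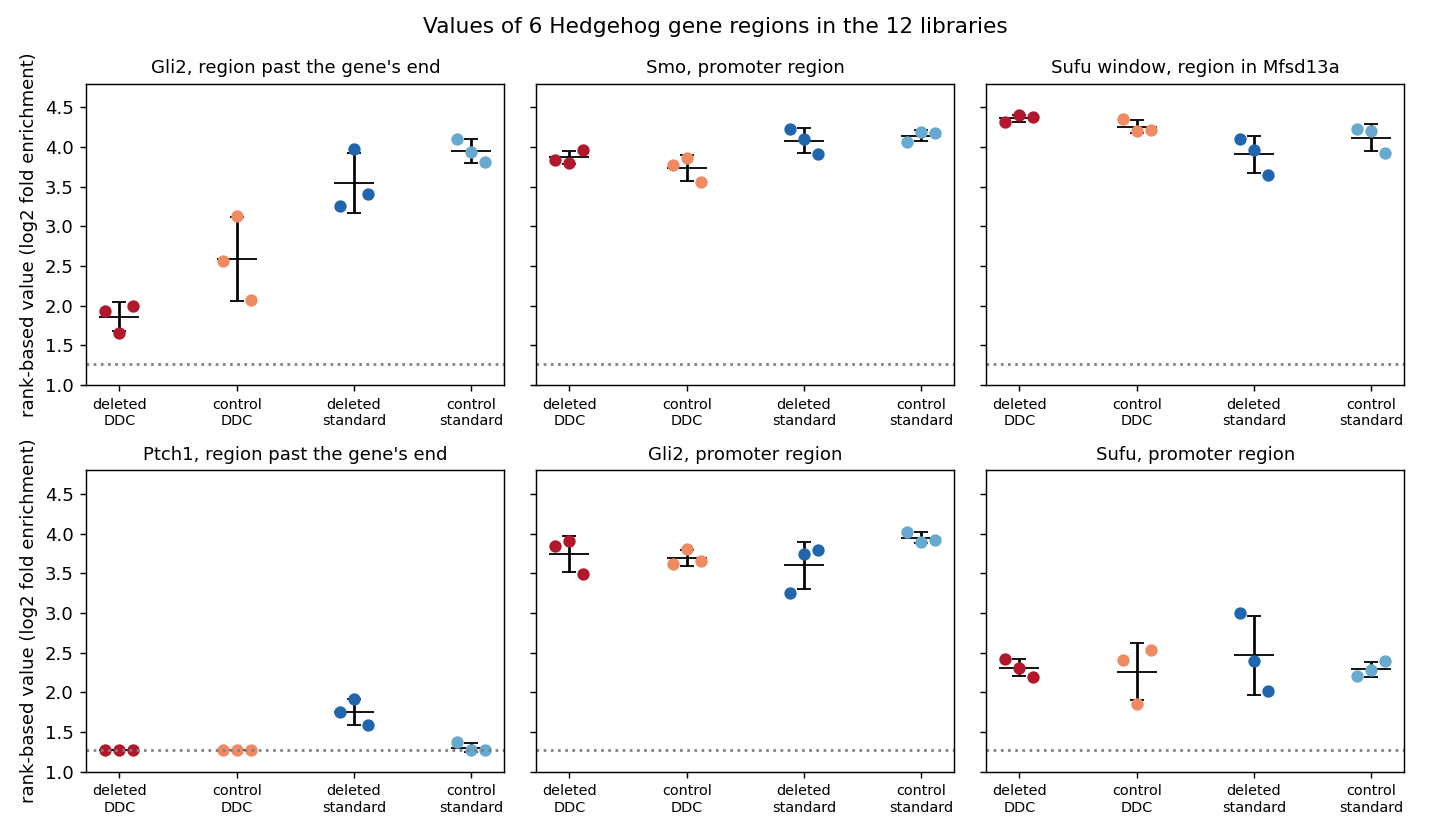
Rank-based values (y axis, log2) of 6 regions in the 4 groups (x axis); points are libraries, bars the mean and SD of 3 libraries, the dotted line the lowest value, taken when a region is absent. The 6 DDC libraries lie below the 6 standard-diet libraries at the Gli2 region past the gene's end, with group means of 1.86, 2.59, 3.55 and 3.95 from left to right.

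Some regions fell just short of the threshold or differed by presence alone. Within Gli2 (chr1:118966254-118966772, named after its values were seen) the values were 2.84, 2.72 and 2.44 in control DDC libraries against 1.27, 1.62 and 2.23 in control standard-diet libraries, a difference of 0.96 ± 0.29 (limma, adjusted p = 0.0505). Within Sufu (chr19:46406612-46407094) a region was in 3 of 3 Fbxl5-deleted DDC, 3 of 3 control DDC, 0 of 3 Fbxl5-deleted standard-diet and 3 of 3 control standard-diet lists, so it was missing only from Fbxl5-deleted mice on the standard diet. Its diet difference in Fbxl5-deleted mice had an adjusted p of 0.0594 and its difference between diet effects an adjusted p of 0.847, in limma. In controls 3 regions were in 3 of 3 DDC lists and 0 of 3 standard-diet lists (3.89% of all tested), in Sufu, Gli2 and the Gli1 window, and 3 were the other way round (1.79% of all tested), 1 in Ptch1 and the others in the Gli1 window. None of these 6 was called (limma, adjusted p of 0.0661 to 0.461).

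Fbxl5 deletion changed none of the 96 regions on DDC in limma, where 0.0% of all tested regions were called, and none on the standard diet, where 0.000722% were called, a single region elsewhere. The difference between the diet effects gave none either, with 0.0% of all tested regions called. At an unadjusted p under 0.05 in limma there were 5 regions for genotype on DDC (5.94% of all tested), 9 on the standard diet (8.09%) and 3 for the difference between effects (5.87%). The median genotype difference was 0.01 on DDC and −0.02 on the standard diet, against 0.0 over all tested regions on each diet. Fbxl5-deleted libraries lay above control libraries without overlap at 6 regions on DDC (4.62% of all tested) and 5 on the standard diet (4.18%), and below at 5 on DDC (5.03%) and 7 on the standard diet (5.37%). By presence, 1 region was in 3 of 3 Fbxl5-deleted and 0 of 3 control lists on DDC (0.399%) and 0 on the standard diet (0.251%). The other way round there were 0 on DDC (0.738%) and 2 on the standard diet (0.893%).

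Named by the smallest p per gene, some genotype differences were sizeable but uncertain. A Gli3 region (chr13:15707259-15707855) had 1.72, 1.59 and 2.42 in Fbxl5-deleted DDC libraries against 2.67, 2.86 and 2.51 in control DDC libraries, with no overlap. It differed by −0.77 ± 0.27 (limma, adjusted p = 0.615). On the standard diet a region inside Tspan33, 17282 bp before Smo (chr6:29717918-29718215), was in 0 of 3 Fbxl5-deleted lists against 3 of 3 control lists, at 1.91, 2.10 and 2.28 (limma, adjusted p = 0.275). A Ptch1 region at the upper end of the span (chr13:63572995-63573835) had 1.27, 1.91 and 1.49 in Fbxl5-deleted DDC libraries, 2.57, 1.71 and 1.87 in control DDC, 1.69, 1.48 and 1.27 in Fbxl5-deleted standard-diet and 2.37, 2.28 and 1.88 in control standard-diet libraries. It was lower in Fbxl5-deleted mice by 0.49 ± 0.28 on DDC and 0.69 ± 0.28 on the standard diet, where the groups did not overlap (limma, adjusted p = 0.912 and 0.516).

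Of 33 other Hedgehog genes, which held 453 tested regions by the same rule, DDC raised 6 regions and lowered 4 in Fbxl5-deleted mice and raised 17 and lowered 13 in controls. Over all tested regions 2.43% rose and 0.743% fell in Fbxl5-deleted mice, and 4.66% rose and 2.36% fell in controls. In total 3.17% of all tested regions were called in Fbxl5-deleted mice and 7.02% in controls. Among the 453 the share called lay below these totals, more so in Fbxl5-deleted mice than in controls. In both genotypes the share that rose lay below that of all tested regions, and the share that fell lay slightly above it. No test was made of these counts. The median diet difference of the 453 was −0.02 in Fbxl5-deleted mice and −0.02 in controls, beside 0.01 and −0.01 over all tested regions. Genotype gave 0 calls in limma on either diet, with 28 regions at an unadjusted p under 0.05 on DDC (5.94% of all tested) and 33 on the standard diet (8.09% of all tested), and the difference between diet effects gave 0, with 34 (5.87% of all tested). Among receptors, a region of Lrp2, a large endocytic co-receptor (chr2:69445725-69446401), rose in both genotypes, with 3.61, 3.00 and 3.40 in Fbxl5-deleted DDC libraries, 4.00, 4.15 and 4.16 in control DDC, 2.26, 2.48 and 2.43 in Fbxl5-deleted standard-diet and 2.79, 1.72 and 2.30 in control standard-diet libraries. The differences were 0.95 ± 0.23 in Fbxl5-deleted mice and 1.83 ± 0.23 in controls (limma, adjusted p = 0.0276 and 6.57e-05). The difference in Fbxl5-deleted mice lost its call without replicate 1 or 3 of either diet in that genotype. Other Lrp2 regions moved differently. In controls, the region at chr2:69466490-69467164 fell by 0.97 ± 0.26 and that at chr2:69487540-69488118 fell by 1.14 ± 0.27 (limma, adjusted p = 0.026 and 0.012). The call at chr2:69466490 was lost without control replicate 1 or 2 on DDC or any 1 control replicate on the standard diet, and that at chr2:69487540 without control replicate 1 on DDC or 2 on the standard diet. In Fbxl5-deleted mice the region at chr2:69493027-69493621 rose by 1.05 ± 0.28 (limma, adjusted p = 0.0467). With 1 library left out that call held only without replicate 2 of the Fbxl5-deleted or replicate 3 of the control standard-diet group, and without replicates 1 and 3 of the Fbxl5-deleted standard-diet group the difference was 0.30 (limma, adjusted p = 0.787). Among ligands, a region of Shh (chr5:28464310-28464947) fell in both, by 0.98 ± 0.23 in Fbxl5-deleted mice and 0.88 ± 0.23 in controls (limma, adjusted p = 0.0194 and 0.0219). It lost its call in Fbxl5-deleted mice without replicate 2 or 3 on DDC or replicate 3 on the standard diet, and in controls without replicate 2 on DDC or replicate 1 or 3 on the standard diet. A region of the target Mycn, which encodes a growth-promoting transcription factor (chr12:12910409-12911123), rose by 1.11 ± 0.23 in Fbxl5-deleted mice and 1.28 ± 0.23 in controls (limma, adjusted p = 0.00914 and 0.00161); the call in Fbxl5-deleted mice was lost without their replicate 2 on DDC. A region of the cilium transport gene Ift88 (chr14:57417172-57417798) rose by 1.22 ± 0.30 in Fbxl5-deleted mice and 1.41 ± 0.30 in controls (limma, adjusted p = 0.0307 and 0.00689); the call in Fbxl5-deleted mice was lost without their replicate 2 or 3 on DDC or replicate 1 on the standard diet. With replicates 1 and 3 of their standard-diet group left out, the differences in Fbxl5-deleted mice were 0.86 for the first Lrp2 region, −0.93 for Shh, 1.01 for Mycn and 0.99 for Ift88, and none passed (limma, adjusted p of 0.142 to 0.286). A region of Sox9, a cholangiocyte and progenitor factor (chr11:112792055-112792595), fell in controls by 1.39 ± 0.29 (limma, adjusted p = 0.00596), and was −0.48 ± 0.29 in Fbxl5-deleted mice (limma, adjusted p = 0.419). It was in 1 of 3 control DDC lists against 3 of 3 control standard-diet lists, so its size depends on the value set for absence. Peaks within 1 kb of the ends of Sox9 had fold enrichments of 6.73, 10.4 and 9.45 in control DDC and 6.22, 9.78 and 7.89 in control standard-diet libraries. In Cul3, 3 regions were called in both genotypes. Their differences in Fbxl5-deleted mice and controls were −1.28 and −1.03 at chr1:80247192, −0.63 and −0.54 at chr1:80339676, and 1.11 and 0.96 at chr1:80362342. With 1 library left out these calls held in 6 to 12 of the 12 fits. The regions named are examples, and other calls, such as those in Gas1 and Bcl2 in controls, are not described. Pathway genes thus had regions that moved in either direction.

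Regions elsewhere whose values most resembled those of the Gli2 region past the gene's end, by Pearson r over the 12 libraries, lay 8387 bp from Nipbl (r = 0.964), in Clpb (0.956), in Dscam (0.955) and in Afm (0.945), with 1 in no gene (0.949). Those most like the region that overlaps the Smo promoter lay near Anxa3 (0.954) and in Gucd1 (0.947). The search ran over all regions on other chromosomes, and the libraries share group and list quality, so these values are a description.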

How the data were processed

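Hepatocytes were separated by collagenase perfusion, and 1 ATAC-seq library per mouse was made, 3 mice per group. Tools in the submitters' processing notes are MACS2, Bowtie2, fastp, Picard, SAMtools, deepTools and bedtools, and the build is mm10; nothing used here gives versions, settings or any shift of read positions. The deposited lists, 1 per library, give a fold enrichment (ratio) and −log10 p and −log10 q values, which ranked peaks (ties by −log10 p) and set alternatives. The score in the deposited lists was not used for values. Depth is unknown, as peak lists alone were analysed here. Peaks of chromosomes X, Y and 1 to 19 entered, with summits of 1 peak merged. Equal numbers (137034) of the strongest peaks were kept per library and joined at 1 bp overlap. Values were ranks placed on the mean log2 fold enrichment, so differences are relative within a library. limma 3.58.1 in R 4.3.3 (trend, robust) fitted 4 group means over all 138538 tested regions, two-sided, with Benjamini-Hochberg adjustment, and was tested on simulated data. The genes, lists and region rules (start, highest mean, smallest p, every call) were chosen with earlier results of these data known; the Gli2 region that fell is one such result. Analysis used Python 3.11.15, numpy 2.4.6, pandas 2.3.3 and matplotlib 3.10.9.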

Additional observations from a re-analysis of the deposited data

Results flagged for a closer look

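One region moved in opposite directions with genotype on the 2 diets in every library. It lies inside Inhbc in the Gli1 window (chr10:127367754-127368186), 26175 bp from Gli1. How many of all tested regions do the same was not counted. Taken singly, 4.62% lay above without overlap on DDC and 5.37% below on the standard diet. On DDC the Inhbc region was listed in 3 of 3 Fbxl5-deleted lists of kept peaks, at values of 1.37, 1.55 and 1.29. These lie near the lowest value, 1.27, which was set for its absence from all 3 control lists. On the standard diet it had 1.27, 1.70 and 1.51 in Fbxl5-deleted libraries against 1.77, 1.75 and 1.88 in control libraries. The difference between the genotype effects was 0.44 (log2, rank-based) and did not pass limma's interaction test (adjusted p = 0.872).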

How the results depend on the processing

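The number of called regions among the 96 was 0 for genotype on either diet and for the difference between diet effects in every alternative run. For diet in controls it was 2, and 1 with the 50% reciprocal overlap, with no region filter, with the median kept enrichment of a library as a covariate, and with flanks of 0 kb or 10 kb. For diet in Fbxl5-deleted mice it was 3, then 0 with the reciprocal overlap, 1 with no region filter, 1 with the covariate, 0 with a flank of 0 kb and 1 with 10 kb. Leaving out 1 library gave 1 to 3 in either genotype. The cause of these changes was not tested, except that narrower flanks hold fewer regions. Same-numbered libraries did not deviate together (correlations of −0.02 to 0.06), so the numbers were not used as pairs; with the replicate number as a block the counts were 1 in controls and 2 in Fbxl5-deleted mice.

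The 68 region differences named or called had 1399 values over the alternatives. Of these, 1054 kept sign and call status, 334 kept their sign but lost a call, 2 gained a call and 9 changed sign. None of the 9 was called after the change. The Ptch1 region at chr13:63548337 in controls came to 0.77 and the Cul3 region at chr1:80339676 in Fbxl5-deleted mice to 0.40, both with the reciprocal overlap. The Gli3 region at chr13:15758928 came to −0.23 for diet in Fbxl5-deleted mice and 0.33 for genotype on the standard diet without Fbxl5-deleted standard-diet libraries 1 and 3, and to −0.31 and 0.11 with the covariate. Leaving out 1 library moved its genotype value between −0.73 and 0.0079, and that of the Hhip region at chr8:79945607 between −0.13 and 0.34. Read depth is not known from the lists, so weak peaks near the lowest value may be missed by chance of sampling, and absence from a list is not absence of open chromatin.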
